A study of Mus musculus with 6 samples.

Results

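The transcription factors that build the heart are the subject here: 10 genes, followed through the anti-m6A immunoprecipitates of mouse fetal hearts. They were chosen by name; the rule uses no measured value, though earlier results of these data were known when the set was drawn up. The set is Nkx2-5 (ENSMUSG00000015579), Gata4 (ENSMUSG00000021944), Gata6 (ENSMUSG00000005836), Tbx5 (ENSMUSG00000018263), Tbx20 (ENSMUSG00000031965), Tbx2 (ENSMUSG00000000093), Hand1 (ENSMUSG00000037335), Hand2 (ENSMUSG00000038193), Mef2c (ENSMUSG00000005583) and Isl1 (ENSMUSG00000042258). They make up 10 of the 48505 genes in the deposited tables and 2254 of their 5193362 windows. All 10 passed the filter on low values, a mean of at least 10 normalized reads per gene over the 6 libraries.

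The mark N6-methyladenosine (m6A) sits on adenosines of RNA and is mapped by pulling RNA fragments down with an antibody against it and sequencing this immunoprecipitate (IP). All 6 samples came from wild-type FVB/NJ mice. Dams, 14 in the study and 10 weeks old on purchase, breathed either filtered air (sham, 3 libraries) or an aerosol of titanium dioxide nanoparticles (nano-TiO2, 3 libraries). The aerosol target was 12 mg/m3 for 360 minutes a day on 6 non-consecutive days of an 8-day span, starting on gestational day 5. Fetal hearts were taken on gestational day 15 and pooled, males with females. How litters were spread over the pools is not given in the labels, so p-values measure the spread between these 6 samples, which may be partly technical.

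Cardiac transcription factors work as an interlocking set. The homeodomain protein Nkx2-5, the zinc finger proteins Gata4 and Gata6 and the T-box protein Tbx5 bind one another and share many target genes in heart muscle. Tbx20 and Tbx2 are T-box proteins that act in chamber growth and in the non-chamber myocardium of the canal and outflow tract, Hand1 and Hand2 are bHLH proteins tied to the left and right ventricle, Mef2c is a MADS-box activator of muscle genes, and Isl1 is a LIM-homeodomain protein of the second heart field progenitors. m6A is known to act on RNA stability and translation, and it is often densest near stop codons and in long exons.

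Libraries held 20205024 to 31523675 reads, of which the 10 genes took 0.0602% to 0.0679% in sham hearts and 0.0726% to 0.102% after nano-TiO2. The 4 most abundant genes of the table took 20.6% to 35.2% of reads in sham and 8.03% to 18.0% in nano-TiO2 libraries, and the part of this difference in the results below was not tested beyond the scalings named there. In these bulk samples fewer cells of a type and less RNA per cell cannot be told apart, and an IP level moves with the amount of an RNA as well as with its methylation. Marker lists for the labelled tissue could not be read in these tables, which name genes by Ensembl ID alone.

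Set against sham, nano-TiO2 fetal hearts held more IP signal of Tbx20, Mef2c and Tbx5 and less of Nkx2-5. Tbx20 was 3.30-fold, Mef2c 2.77-fold and Tbx5 1.67-fold as high as in sham, and Nkx2-5 was 1.45-fold lower. Thus 3 of 10 genes rose and 1 of 10 fell, where 24.0% of all 18566 genes tested rose and 12.0% fell (limma on log2(normalized reads + 1), Benjamini-Hochberg adjusted p under 0.05). The groups did not overlap in 5 of the 10, the 4 called genes and Gata6, against 49.5% of all genes tested. These shares lie near those of the whole table, so the counts do not set the 10 genes apart. The median log2 change was 0.27 over the 10 and 0.13 over all genes tested.

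**Figure D1:**
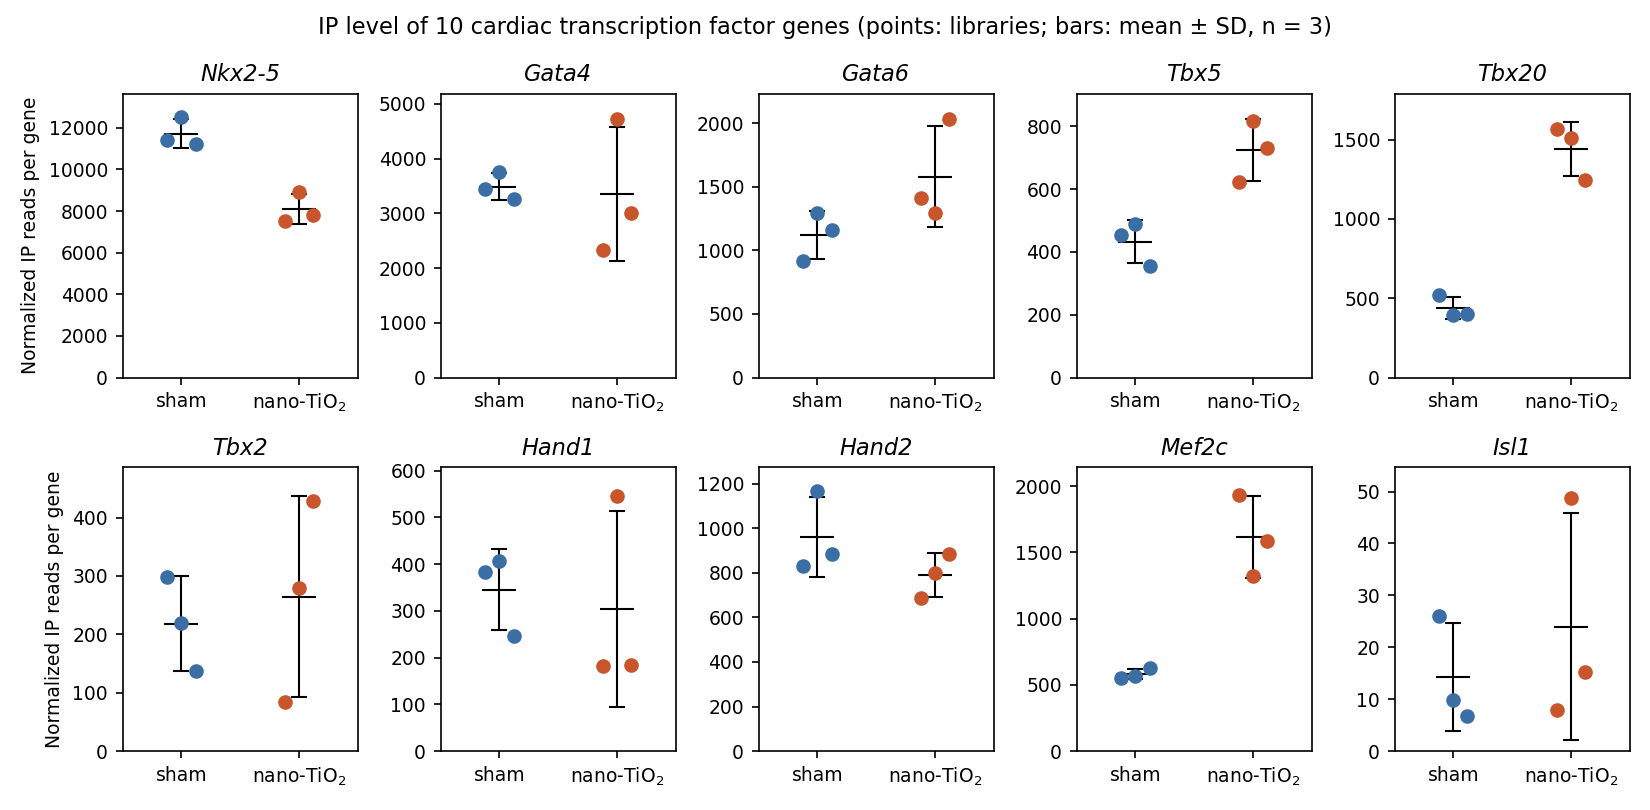
Normalized IP reads per gene (vertical axes, from 0, each panel on its own scale) in the 3 sham and 3 nano-TiO2 libraries for the 10 genes; points are libraries and bars mean ± SD. Tbx20, Mef2c and Tbx5 lie higher and Nkx2-5 lower in all 3 nano-TiO2 libraries, while Gata4, Tbx2, Hand1, Hand2 and Isl1 overlap between groups.

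Levels of different genes were compared per window, since gene models differ in length. In sham hearts Nkx2-5 stood far above the rest, with 172 ± 10.1 normalized reads per window (SD, n = 3). Over all 6 libraries its level per window exceeded that of 98.0% of the genes tested. Gata4 followed with 22.4 ± 1.60 and Hand2 with 10.2 ± 1.93 reads per window (SD, n = 3), and none of these first levels overlapped with the next. Hand1 and Gata6 came next, at 4.37 ± 1.10 and 4.31 ± 0.739 (SD, n = 3), and did not differ beyond their spread. Tbx5 at 2.32 ± 0.370, Tbx2 at 1.51 ± 0.559, Mef2c at 0.928 ± 0.0635 and Tbx20 at 0.911 ± 0.146 (SD, n = 3) each overlapped with its neighbour. Isl1 was last at 0.0901 ± 0.0657 reads per window (SD, n = 3), and over all 6 libraries it exceeded 5.59% of the genes tested.

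In nano-TiO2 hearts Nkx2-5 and Gata4 again led, at 119 ± 10.7 and 21.5 ± 7.88 reads per window (SD, n = 3). Hand2 and Gata6 overlapped, at 8.42 ± 1.06 and 6.06 ± 1.53 (SD, n = 3). Tbx20 stood at 3.01 ± 0.356 and Mef2c at 2.57 ± 0.490 reads per window (SD, n = 3), overlapping with each other. Between them and Gata6 lay Tbx5 at 3.87 ± 0.525 and Hand1 at 3.84 ± 2.65 (SD, n = 3), which overlapped as well. Hand1 also overlapped with Tbx20. Tbx2 and Isl1 closed the order at 1.82 ± 1.19 and 0.152 ± 0.138 (SD, n = 3), and Tbx2 overlapped with Mef2c.

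Promoters were at hand for 5 of the 10 genes, from RefSeq on build GRCm38.p6, each reaching from 250 bases before to 50 after a transcript start. The 3 that belong to called genes are printed, 5′ to 3′ on the gene's strand, because these genes moved together or against each other; for Mef2c, the start farthest upstream of its 3 listed starts is shown. Capitals mark a match to the letters of a factor in the list.
Tbx20 (chr9:24774254-24774553, minus strand): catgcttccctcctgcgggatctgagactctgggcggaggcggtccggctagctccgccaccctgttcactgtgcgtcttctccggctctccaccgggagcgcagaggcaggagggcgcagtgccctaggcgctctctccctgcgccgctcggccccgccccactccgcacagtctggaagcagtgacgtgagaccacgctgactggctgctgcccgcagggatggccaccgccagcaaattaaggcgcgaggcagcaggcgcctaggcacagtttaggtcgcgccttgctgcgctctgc
Mef2c (chr13:83503784-83504083, plus strand): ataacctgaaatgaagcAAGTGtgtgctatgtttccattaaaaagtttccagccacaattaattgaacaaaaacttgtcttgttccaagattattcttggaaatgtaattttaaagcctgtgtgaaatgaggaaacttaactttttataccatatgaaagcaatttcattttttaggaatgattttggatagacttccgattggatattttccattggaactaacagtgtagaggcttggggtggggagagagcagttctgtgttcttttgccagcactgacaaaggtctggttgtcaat
Nkx2-5 (chr17:26841516-26841815, minus strand): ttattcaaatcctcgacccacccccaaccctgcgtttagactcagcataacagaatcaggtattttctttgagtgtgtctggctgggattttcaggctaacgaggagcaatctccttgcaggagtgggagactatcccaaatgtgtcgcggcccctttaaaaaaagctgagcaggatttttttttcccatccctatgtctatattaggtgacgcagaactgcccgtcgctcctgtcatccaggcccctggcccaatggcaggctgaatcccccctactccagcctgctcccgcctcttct
Letters were searched on both strands. For the NKX class they were AAGTG, found in 46.38% of all 32851 listed promoters of the same length. For GATA factors they were AGATAA or AGATAG as one pair of forms, with TGATAA or TGATAG as the other pair, found in 29.76%. The T-box letters, AGGTGT, were found in 13.74% and those of MEF2, TATTTATA, in 1.702%. None of these forms lies within another. The printed Mef2c promoter held 1 NKX match, and none of these letters was in the printed Tbx20 and Nkx2-5 windows. Among the promoters not printed, Hand2 had 1 NKX and 2 GATA matches and Isl1 had 2 GATA matches, while both other Mef2c starts had 1 NKX match, one of them with 1 T-box match. A match is a description of letters, and the libraries measured RNA, not promoter activity.

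Nkx2-5, the homeodomain factor of cardiac muscle, is a short gene here with 68 windows and the most reads of the 10. Its normalized IP level was 11429, 12496 and 11220 in sham against 7525, 8905 and 7816 with nano-TiO2, each time in the order of replicates 1, 2 and 3. Every nano-TiO2 library lay below every sham library. The means were 11715 ± 684 and 8082 ± 727 (SD, n = 3), a log2 change of -0.54 ± 0.13 (SE, limma adjusted p = 0.013). This call depended on 2 libraries and on the scaling. Leaving out nano-TiO2 replicate 1 gave an adjusted p of 0.051, and leaving out its replicate 3 gave 0.055; over the 21 alternatives it ran from 2.0e-06 to 0.88. When libraries were given equal totals the log2 change of Nkx2-5 was -0.040, or -0.27 when totals were made equal leaving aside the 4 most abundant genes, and quantile normalization gave -0.045 (adjusted p = 0.88, 0.17 and 0.84). The median of all genes moved with the totals, from 0.13 to 0.61 with equal totals and 0.39 outside the 4 genes. Set against that median, Nkx2-5 was lower by 0.66 on the log2 scale as deposited, by 0.65 with equal totals and by 0.66 outside the 4 genes. Both kinds of equal totals divide each library by 1 constant, which moves all genes nearly alike. That difference was thus fixed in advance and is no support for a fall. After quantile normalization, where the median was -0.054, the difference was 0.0084.

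The GATA factors did not pass the test. Gata4, which opens chromatin for the other factors, had normalized IP levels of 3452, 3757 and 3261 in sham against 2338, 4721 and 3006 with nano-TiO2. The nano-TiO2 libraries held both the lowest and the highest value, so the groups overlapped. The log2 difference of Gata4 was -0.12 ± 0.23 (SE, limma adjusted p = 0.73), and the sign turned with equal totals (0.38), with those 4 genes left aside (0.15) and after quantile normalization (0.17). Set against the median of all genes, Gata4 stood at -0.24 as deposited. Both kinds of equal totals leave that distance in place by construction (-0.23 and -0.24). After quantile normalization Gata4 was 0.23 above that median.

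Gata6, the partner of Gata4 in outflow tract and muscle, gave 912, 1291 and 1157 normalized reads in sham against 1407, 1292 and 2030 with nano-TiO2. The groups touched, with the highest sham value just below the lowest nano-TiO2 value. The means were 1120 ± 192 and 1576 ± 397 (SD, n = 3), a log2 change of 0.48 ± 0.21 (SE, limma adjusted p = 0.10). Gata6 passed the threshold with equal totals (0.98, adjusted p = 0.0017), also with those 4 genes left aside (0.75, adjusted p = 0.014), and with libraries weighted by their quality (0.77, adjusted p = 0.0057), and over all alternatives its adjusted p ran from 0.0017 to 0.89. Its distance above the median of all genes was 0.35 as deposited. Both kinds of equal totals leave that distance in place by construction (0.36), so the calls gained there came with a shift of all genes. The change of Gata6 was -0.044 once the trend with gene length was removed. An antisense RNA, Gata6os, overlaps the span of this gene, introns included, in RefSeq. Whether it shares any counted window was not tested. Without a stated strand setting, reads in a shared window could not be told apart from those of Gata6.

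Of the T-box factors, Tbx20 showed the largest rise among the 10 genes. Its normalized IP level was 517, 394 and 397 in sham against 1567, 1508 and 1247 with nano-TiO2. The lowest nano-TiO2 library held more than any sham library by a wide margin, and the SDs were 70.1 and 170 (n = 3). In whole reads these are 575, 360 and 294 against 1404, 1822 and 1548. Its log2 change was 1.73 ± 0.17 (SE, limma adjusted p = 0.00058), and it passed the test under each of the 21 alternatives tried, between 0.82 and 2.22. The value of 0.82 came from removing the trend with gene length (adjusted p = 0.015), and the largest adjusted p was 0.030.

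Tbx5, which is tied to the atria and left ventricle and to limb and heart malformation when lost, rose less. Sham libraries held 455, 488 and 355 normalized reads and nano-TiO2 libraries 623, 818 and 732, with no overlap. Tbx5 thus rose by 0.74 ± 0.18 on the log2 scale (SE, limma adjusted p = 0.012). It was 0.44 (adjusted p = 0.061) once the length trend was removed and 0.52 (adjusted p = 0.077) when the median of its windows was used in place of their sum. In the other 19 alternatives Tbx5 was called, with adjusted p from 0.00059 to 0.046. The lncRNA Gm5563 overlaps the span of Tbx5 in RefSeq, and shared windows were not tested.

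Tbx2, a repressor of the chamber programme, varied 5.06-fold between libraries. Values were 299, 220 and 137 in sham against 84.8, 280 and 429 with nano-TiO2, so the nano-TiO2 group held both extremes. A log2 change of 0.062 ± 0.54 (SE, limma adjusted p = 0.94) changed sign under 6 of its alternatives, among them DESeq2 size factors (-0.075) and quantile normalization (-0.27).

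The HAND factors overlapped between groups. Hand1 gave 383, 406 and 246 normalized reads in sham against 182, 545 and 184 with nano-TiO2. Nano-TiO2 replicate 2 stood highest of all 6, and the other two of its group lowest. For Hand1 the log2 change was -0.36 ± 0.41 (SE, limma adjusted p = 0.53), -0.88 without nano-TiO2 replicate 2 (adjusted p = 0.026) and 0.14 with equal totals (adjusted p = 0.80), with adjusted p between 0.019 and 0.90 over all alternatives. Against the median of all genes Hand1 stood at -0.48 as deposited and -0.47 with equal totals, a scaling that leaves this distance in place by construction. The lncRNA Gm32915 overlaps the span of Hand1 in RefSeq, and shared windows were not tested.

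Hand2, the right ventricular partner of Hand1, gave 831, 1169 and 885 normalized reads in sham against 688, 799 and 887 with nano-TiO2. Nano-TiO2 replicate 3 lay within the sham range, just above sham replicate 3. For Hand2 the log2 change was -0.27 ± 0.18 (SE, limma adjusted p = 0.26) and 0.22 with equal totals (adjusted p = 0.37), with adjusted p between 0.056 and 0.99 over all alternatives. Against that median Hand2 stood at -0.40 as deposited and -0.39 with equal totals, again a distance that this scaling leaves in place.

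Mef2c, the muscle activator and the longest of the 10 models with 628 windows, rose. Its normalized IP level was 554, 566 and 628 in sham against 1935, 1321 and 1589 with nano-TiO2. The sham libraries lay close together, at 583 ± 39.9 (SD, n = 3), and all 3 nano-TiO2 libraries were above them, at 1615 ± 308 (SD, n = 3). This is a log2 change of 1.45 ± 0.17 (SE, limma adjusted p = 0.00074). It passed the test in 20 of 21 alternatives, between 1.31 and 1.95. In the exception, a fit without the length trend, it was 0.41 (adjusted p = 0.10). The lncRNAs Gm52043 and Gm52044 overlap the span of Mef2c in RefSeq, and shared windows were not tested.

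Isl1, the progenitor factor, was read few times in any library. It had 29, 9 and 5 whole reads in sham against 7, 59 and 19 with nano-TiO2, 128 in all, and 96 of its 158 windows held no read. Nano-TiO2 replicate 2 held the most and sham replicate 3 the fewest. Its log2 change was 0.55 ± 0.69 (SE, limma adjusted p = 0.57), and its whole reads spread 11.8-fold between libraries.

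The 3 genes that rose are longer than the 1 that fell, and in the table as a whole longer genes rose more. With all tested genes put in 5 classes of about equal size by their number of windows, the median log2 change was -0.48 in class 1, with the fewest windows, then -0.099, 0.11 and 0.34, and 0.81 in class 5. Nkx2-5 with 68 windows lies in class 2, Tbx5 with 187 in class 4, and Tbx20 with 479 and Mef2c with 628 in class 5. Of the changes in its own class, 94.8% lay below that of Tbx20, 86.0% below that of Mef2c and 69.9% below that of Tbx5. For Nkx2-5 the share below was 17.0%. In class 5, 55.2% of genes rose, and in class 2, 14.2% fell, so a rise of a model as long as that of Tbx20 or Mef2c was common. For Gata6, with 260 windows in class 4, the share below was 57.1%, and for Hand2, with 94 windows in class 2, it was 37.5%. The part of gene length in these changes was not tested beyond the fit with its trend removed, in which 2 of the 10 genes, Tbx20 and Nkx2-5, passed the test, as did 24.2% of the whole table (4484 of 18566 genes).

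**Figure D2:**
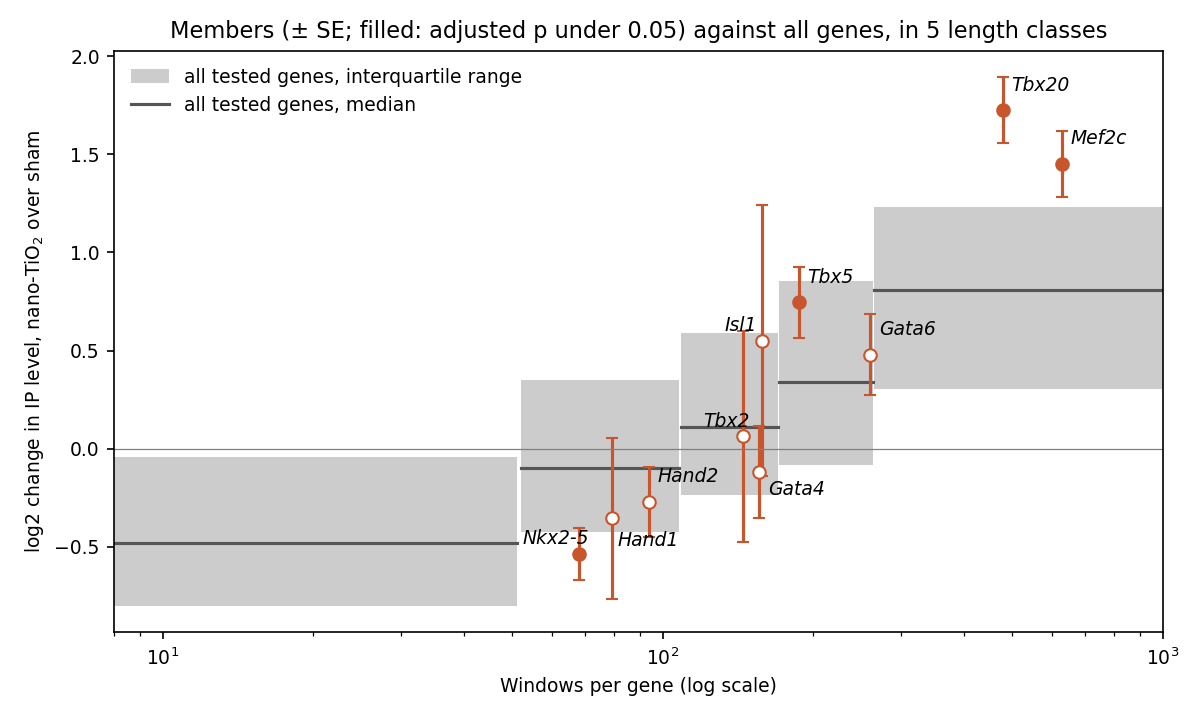
Log2 change in IP level (vertical axis) against the number of windows per gene (horizontal log axis) for the 10 genes, with SE bars and filled points at adjusted p under 0.05; grey bands and dark lines give the interquartile range and the median of all tested genes in each of 5 length classes. Tbx20 and Mef2c lie above the band of the longest genes and Nkx2-5 below the band of its class, while Tbx5 lies inside its own.

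The authors also deposited adjusted values, which differ from the normalized ones by 1 factor per gene and library; the sources used here do not give what that factor was made from. In adjusted level, none of the 10 genes passed the test, and 0.0% of the 19361 genes tested did (limma). Of the 19361, 3592 had an unadjusted p under 0.05. Tbx20 gave 786, 816 and 588 adjusted reads in sham against 949, 1105 and 1077 with nano-TiO2. Mef2c gave 998, 1034 and 872 against 1080, 1320 and 1230, and Tbx5 gave 456, 570 and 425 against 601, 721 and 655. In these 3 genes and in Hand1, with 280, 288 and 343 against 390, 377 and 362, every nano-TiO2 library lay above every sham library. Groups that did not overlap, whichever group was higher, were thus seen in 4 of 10, against 22.4% of all genes tested. The mean of Hand1 was thus higher in adjusted and lower in normalized level, and neither difference passed the test.

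In adjusted level Tbx20 had a log2 change of 0.53 ± 0.14 (SE, limma adjusted p = 0.18), Tbx5 0.45 ± 0.14 (adjusted p = 0.19), Mef2c 0.32 ± 0.12 (adjusted p = 0.21) and Hand1 0.31 ± 0.14 (adjusted p = 0.27). The other 6 genes lay between -0.25 and 0.061. Nkx2-5 gave 10114, 10226 and 8880 adjusted reads in sham against 9826, 10761 and 9854 with nano-TiO2. Its groups overlapped, and its log2 change was 0.061 ± 0.081 (SE, limma adjusted p = 0.70). Without sham replicate 2, Tbx20 and Tbx5 passed the test in adjusted level, as did 1878 of all 19361 genes. With libraries weighted by quality, Mef2c passed it as well, and 5011 of the 19361 did.

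The factor itself, recovered for 9 of the 10 genes and not for Isl1, carried much of the difference. For Tbx20 it was 0.630, 0.475 and 0.676 in sham against 1.67, 1.39 and 1.16 with nano-TiO2, without overlap. For Mef2c it was 0.576, 0.548 and 0.741 against 1.81, 0.998 and 1.31, and for Nkx2-5 1.13, 1.22 and 1.26 against 0.765, 0.828 and 0.793. These 3 genes passed the test of the factor, with log2 changes of 1.24 ± 0.29 for Tbx20, 1.11 ± 0.30 for Mef2c and -0.60 ± 0.17 for Nkx2-5 (SE, limma adjusted p = 0.023, 0.025 and 0.026). Over the 13489 genes with a factor, 17.0% were called higher and 20.1% lower. The groups did not overlap in 5 of the 9 genes, these 3 with Tbx5 and Hand2, against 50.3% of all. None of the 9 was called in fits that left out nano-TiO2 replicate 1 or 3, where limma called 0 of all 13489 genes (5142 and 5544 had an unadjusted p under 0.05). With the length trend taken out none of the 9 was called either, against 14.6% of all. Without sham replicate 2, Tbx20 alone was called, against 11.3% of all. When nano-TiO2 replicate 2 was left out, Gata6 and Hand1 were called besides, against 35.4% of all.

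**Figure D3:**
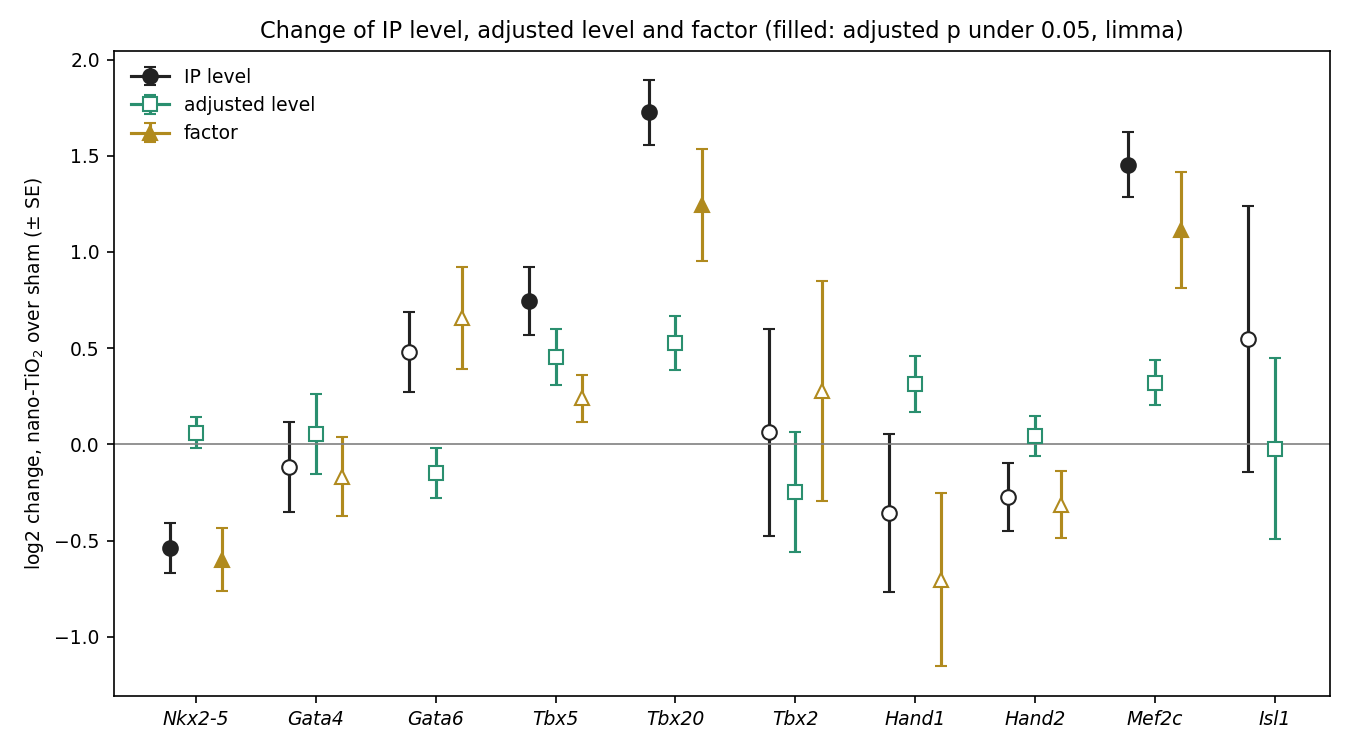
Log2 change, nano-TiO2 over sham, of the normalized IP level, the adjusted level and the factor between them for the 10 genes (± SE; filled symbols have a limma adjusted p under 0.05; Isl1 has no factor). For Tbx20, Mef2c and Nkx2-5 the factor takes most of the change in IP level, and no adjusted level is filled.

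Along the genes, signal was laid out in different ways. Window starts are counted in nucleotides from the first window of a gene, as the files number them, most of them 25 apart; which end is the 5′ end was not established. Fragments were longer than this step, so neighbouring windows are not independent. Nkx2-5 was covered along most of its length: 63 of 68 windows had a mean of at least 1 normalized read, and its densest 10 windows held 20.8% of the signal where an even spread gives 14.7%. Gata4 was also covered over most of its length (137 of 156 windows) with its peak near the first end, at start 505. With each model cut into 10 parts of about equal window number, Nkx2-5 had 3.74% of its signal in part 1 and 0.339% in part 10. Gata6 had 39.2% and 35.6% of its signal in parts 9 and 10, and Hand2 had 27.3%, 30.2% and 22.9% in parts 6, 7 and 8. Tbx20 and Mef2c, the long models, had separate blocks of signal with gaps between them, and 206 of the 628 Mef2c windows held no read.

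**Figure D4:**
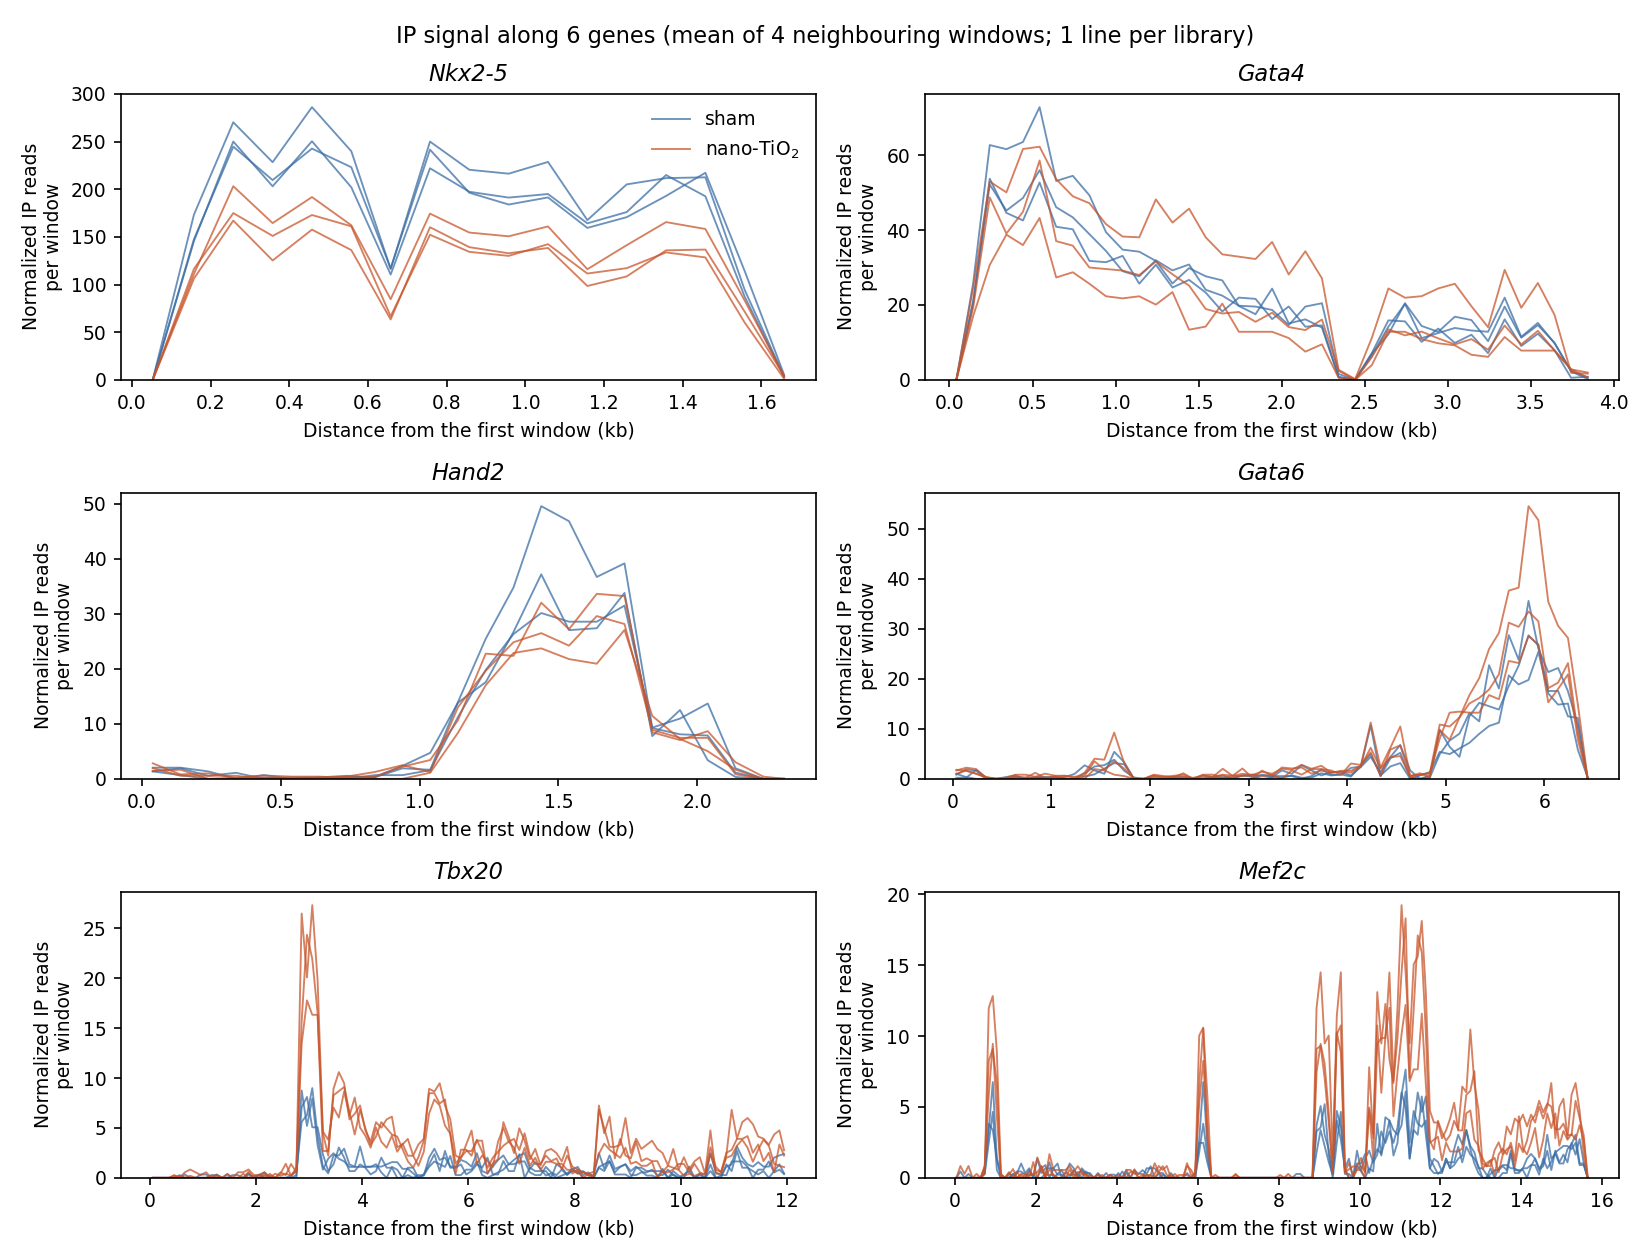
Normalized IP reads per window (vertical axes, from 0) against distance from the first window in kb for 6 genes, as means of 4 neighbouring windows with 1 line per library, sham blue and nano-TiO2 red. The red lines run below the blue ones along nearly all of Nkx2-5 and above them in the blocks of Tbx20 and Mef2c, while in Gata4 and Hand2 they cross.

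Of the windows, 287 in 7 of the 10 genes passed the filter of a mean of at least 10 reads; Tbx2, Hand1 and Isl1 had none. Of these 287 windows, 12 rose and 14 fell, where 3.88% of all 250317 windows tested rose and 7.32% fell. The 14 were all in Nkx2-5, and of the 12, 11 were in Tbx20 and 1 in Mef2c. In 11 of the 12 the sham mean was under 10 reads, so these windows passed the filter through their nano-TiO2 level, and their number is a description that nothing is drawn from. In adjusted level none of 293 windows was called (limma), against 0.00316% of all. The count moved with single libraries, in these genes and in the whole table. From 26 it went to 7, 10 and 12 without sham replicates 1, 2 and 3, while the count over all 250317 windows went from 28052 to 12114, 17866 and 20088. Leaving out nano-TiO2 replicates 1, 2 and 3 gave 2, 27 and 1 windows, and 13155, 21647 and 13744 over all. In Nkx2-5 the fits without 1 library called no window, with 2 exceptions: 3 windows when sham replicate 3 was left out, and 18 when nano-TiO2 replicate 2 was.

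In Nkx2-5 the fall ran along the gene. Every nano-TiO2 library lay below every sham library in 53 of its 58 tested windows. Of all windows tested, 19.7% had this order and 31.2% had groups that did not overlap, whichever group was higher. The windows of Nkx2-5 share libraries and fragments, so this count is a description and carries no test. At start 1470 the levels were 246, 245 and 277 in sham against 174, 172 and 128 with nano-TiO2 (log2 change -0.70 ± 0.19 SE, limma adjusted p = 0.027). At start 620, where coverage dips, they were 118, 122 and 98.7 against 48.0, 77.8 and 59.6 (-0.88 ± 0.22 SE, limma adjusted p = 0.020), and at start 1145 they were 192, 194 and 204 against 116, 132 and 123 (-0.67 ± 0.18 SE, adjusted p = 0.027). The highest window of Nkx2-5, at start 470, held 251, 315 and 285 in sham against 187, 227 and 203 with nano-TiO2, also without overlap, with an adjusted p of 0.12. With TMM scaling of the windows no Nkx2-5 window was called.

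The Tbx20 windows lay side by side, with starts from 2848 to 3173, at the edge where its signal begins. Except at start 2873, their sham mean was under 10 reads, so they passed the filter through their nano-TiO2 level. Their log2 changes and adjusted p-values describe these windows and are no support for a rise. At start 2998 the levels were 7.20, 7.67 and 4.05 in sham against 21.2, 22.3 and 29.8 with nano-TiO2 (log2 change 1.82 ± 0.39 SE, limma adjusted p = 0.010). At start 3148 they were 4.50, 5.48 and 4.05 against 24.5, 17.4 and 19.3 (1.91 ± 0.42 SE, adjusted p = 0.011), and at start 3073 they were 12.6, 5.48 and 4.05 against 33.5, 19.0 and 29.0 (1.85 ± 0.42 SE, adjusted p = 0.013). The highest window of Tbx20, at start 2873, held 8.10, 17.5 and 16.2 in sham against 40.2, 27.3 and 25.0 with nano-TiO2 (1.13 ± 0.34 SE, adjusted p = 0.043). Beyond this block the levels were lower. Of the 266 Tbx20 windows that averaged 1 read or more, that block included, 134 had all nano-TiO2 above all sham libraries and 1 the reverse. Of all 1024856 windows with such a mean, 14.9% had the first order and 6.96% the reverse. Tbx20 averaged 0.911 reads per window in sham and 3.01 with nano-TiO2, so this filter can admit windows through their nano-TiO2 level. The count is a description that nothing is drawn from.

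In Mef2c the called window was at start 11551, with 4.50, 7.67 and 8.11 normalized reads in sham against 17.9, 19.9 and 24.2 with nano-TiO2 (log2 change 1.50 ± 0.39 SE, limma adjusted p = 0.023). Its highest window, at start 11151, held 9.89, 8.76 and 9.46 against 21.2, 14.1 and 35.4, with an adjusted p of 0.059. Both windows had a sham mean under 10 reads and passed the filter through their nano-TiO2 level, so these values are descriptions too. All nano-TiO2 libraries lay above all sham libraries in 117 of the 225 Mef2c windows that averaged 1 read or more, and in none the reverse. In Tbx5 this held for 29 of 122 windows and in Gata6 for 17 of 125, a share near that of all windows. A filter at 1 read can likewise admit windows through their nano-TiO2 level, and neighbouring windows share fragments. These counts are thus descriptions and carry no test. The highest window of Tbx5, at start 3126, had 7.20, 13.1 and 6.76 in sham against 13.4, 19.0 and 16.1, and was not called (adjusted p = 0.20). The highest windows of Gata4 (start 505), Gata6 (start 5976) and Hand2 (start 1426) had log2 changes of -0.14, 0.48 and -0.27 and were not called (adjusted p = 0.77, 0.32 and 0.59).

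By the 10 parts of each model, the ratio of nano-TiO2 to sham was near constant in Nkx2-5, between 0.660 and 0.730 in parts 1 to 9. In Tbx20 it was between 2.45 and 4.60 from part 3 on, highest in part 4. There sham libraries held 73.8, 43.8 and 43.2 and nano-TiO2 libraries 266, 245 and 229 normalized reads. In Mef2c the ratio was 2.43 to 3.38 in parts 1, 4 and 6 to 10, while it was 0.941 in part 2 and 0.962 in part 3, which held 2.09% and 0.776% of its signal. In part 2 sham libraries held 18.0, 15.3 and 37.8 and nano-TiO2 libraries 30.1, 21.5 and 15.3 normalized reads of Mef2c, overlapping. Gata4 went from 0.830 in part 1 to 1.16 in part 10, with groups that overlapped in every part. No test was made of these ratios.

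**Figure D5:**
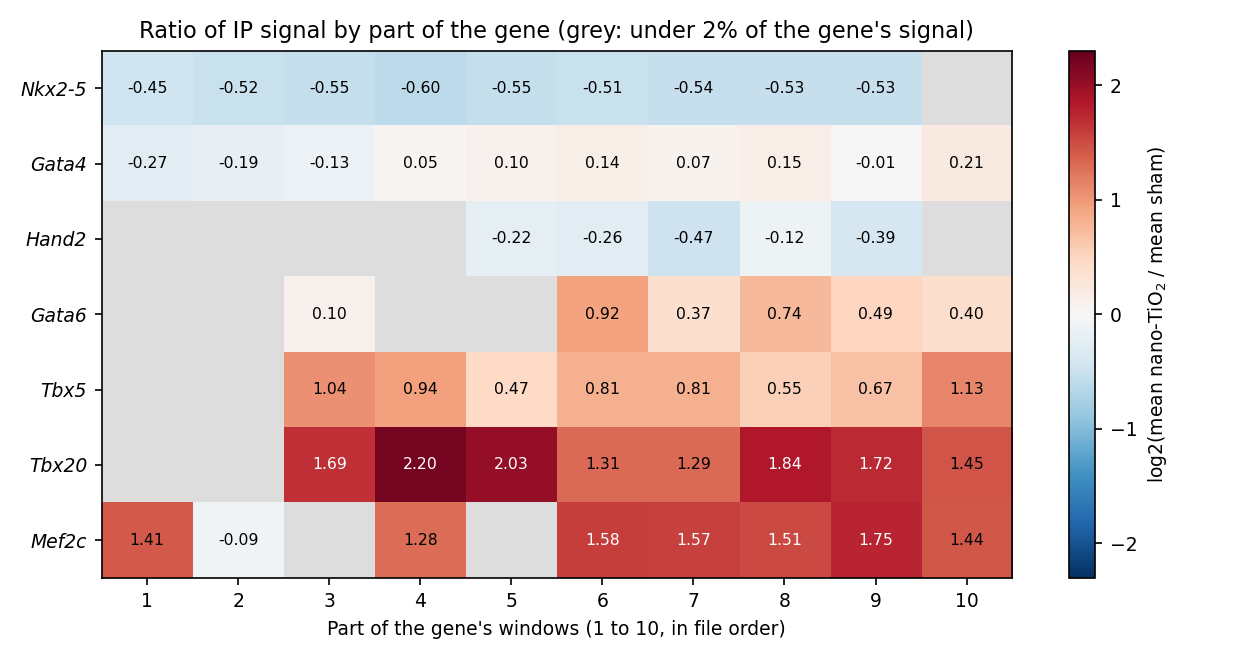
Log2 of the ratio of mean nano-TiO2 to mean sham IP signal in each of 10 parts of the windows of 7 genes, in file order (colour scale from blue, lower, to red, higher; grey parts hold under 2% of the gene's signal). Nkx2-5 is evenly lower in parts 1 to 9, Tbx20 is higher in each part shown, and Mef2c is higher in each part shown except part 2.

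Whether signal moved from one place to another within a gene was asked with each window set against the rest of its gene. Of the 287 windows, 1 differed, at start 1570 of Nkx2-5, against 0.0465% of the 249423 windows tested (limma diffSplice, adjusted p = 0.0039). It lies at the trailing edge of the signal, with levels of 11.7, 9.86 and 8.11 in sham against 12.3, 13.2 and 9.66 with nano-TiO2, which overlap. Its log2 change stood 0.77 above that of the rest of Nkx2-5. With a sham mean under 10 reads, this window passed the filter through its nano-TiO2 level. It is given as a description, and nothing is drawn from its call. It was not called without sham replicate 2 (smallest adjusted p among the 287 windows 0.076), nor without nano-TiO2 replicate 1 (0.13). Without sham replicate 3 the window called was in Tbx20 instead.

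The share of a gene's signal in its densest 10 neighbouring windows, placed by the mean over all 6 libraries, overlapped between groups in all 10 genes, and over the 17315 genes measured 14.4% did not overlap. For Hand2 the share was 33.7%, 39.4% and 36.5% in sham against 34.5%, 33.3% and 34.0% with nano-TiO2. For Tbx20 it was 14.8%, 20.0% and 19.0% against 16.7%, 11.3% and 18.0%, and for Gata6 24.4%, 24.3% and 23.1% against 23.3%, 20.5% and 26.2%. In Nkx2-5 the shares lay closest together, at 20.7% ± 0.287 in sham and 20.8% ± 0.824 in nano-TiO2 libraries (SD, n = 3). Exact two-sided permutation tests of 3 against 3 gave p from 0.3 for Hand2 to 0.9, all 0.9 after adjustment over the 10 genes; 0.1 is the smallest p this design allows.

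Profiles correlated between libraries to a degree that differed by gene. Over the 68 windows of Nkx2-5, Pearson's r between 2 libraries was 0.954 to 0.975 within groups and 0.956 to 0.976 between them. Over the 260 windows of Gata6 it was 0.884 to 0.927 within and 0.880 to 0.945 between groups, and over the 479 of Tbx20 it was 0.515 to 0.848 within and 0.617 to 0.720 between. For Hand1, over 79 windows, it was 0.379 to 0.541 within and 0.134 to 0.555 between groups. For Tbx2 it was 0.302 to 0.616 within groups, and for Isl1 it reached 0.255. These describe windows that share libraries and fragments, which are not independent.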

How the data were processed

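The libraries were 3 sham and 3 nano-TiO2 anti-m6A IP libraries, grouped by their titles; 3 µg of fragmented RNA and 5 µg of antibody were used for each, per the labels' protocols. The authors deposited tables by Ensembl gene ID and window start. The deposited normalized values are a signal with no unit named: each library has 1 step of which 100% of its values are whole multiples (tolerance 0.0001), so whole reads were recovered. The deposited adjusted values are whole-number scores, and 1 factor with rounding linked both tables in each of the 162014 cases of a gene with reads in a library (0 exceptions). The factor was taken as recovered where its bounds were within a relative width of 0.2, in 13489 genes. A table named filtered equalled the normalized one and was not used. The submitters' processing notes name build GRCm39 and, without their roles, DESeq2 1.34.0, Salmon 1.5.2 and HISAT2 2.2.1. How windows were made, whether a read counts in several of them, and the strand setting are not given in the sources used here; input libraries were not analysed here.

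Gene values are sums of windows. A mean of at least 10 was asked of a gene or window, and those that passed were tested over the whole table with limma 3.58.1 (trend, R 4.3.3) on log2(value + 1), two-sided, Benjamini-Hochberg adjusted at 0.05, without covariates; folds in log2 are on this scale, which understates changes of low genes, while plain folds are ratios of group means. The factor was tested on its log2 without a pseudocount. Windows within genes used limma's diffSplice, which takes windows as independent; shares used exact permutation tests (SciPy 1.17.1). Because values are not counts as deposited, edgeR 4.0.16 and DESeq2 1.42.0 on recovered reads were alternatives, beside other scalings, filters, pseudocounts, library weights, a fit without the trend with gene length (loess), a replicate block and each library left out. The fits were also run on simulated data in which windows were drawn independently. Those runs cannot speak for neighbouring windows that share fragments, and nothing is drawn from them here. Python 3.11.15, pandas 2.3.3, NumPy 2.4.6 and matplotlib 3.10.9 were used.

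All 10 genes were named whatever their values, with the highest window of each that passed the filter and up to 3 called windows a gene by smallest p. The genes, lists and tests were chosen with earlier results of these data known. Symbols were paired with IDs by the definition of the gene set; the RefSeq table at hand holds 0 Ensembl IDs, so lists of other cardiac regulators and of cell type markers could not be used. Promoters came from RefSeq by symbol, and RefSeq coordinates of genes are not printed since the builds differ.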

Additional observations from a re-analysis of the deposited data

How the results depend on the processing

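Under the 21 alternatives for IP level per gene, the count of called genes stayed within 3 to 6 of the 10, except 2 with the length trend removed (4 as reported). It was 6 with quality weights, where nano-TiO2 replicate 3 had a weight of 7.23 and the other libraries 0.387 to 1.24. edgeR and DESeq2 on recovered reads each called 4, against 37.3% and 39.4% of all genes tested. Over the 21 alternatives, 15.9% to 50.5% of all genes tested were called. Leaving out 1 library gave 3 to 5 called genes in IP level, 0 to 2 in adjusted level and 0 to 5 in the factor. Over the whole table the shares were 25.7% to 32.5%, 0% to 9.70% and 0% to 35.4%. The same omissions gave 1 to 27 windows in IP level and 0 to 1 within-gene windows, against 4.84% to 8.65% and 0.0349% to 0.0682% of all. They gave 0 to 2 genes with separate groups in the densest stretch, for which no share over all genes was computed. Quality weights gave 3 called genes in adjusted level and 6 in the factor, and the length trend removed gave 0 in the factor. Over the whole table quality weights called 9370 of 18566 genes in IP level, 5011 of 19361 in adjusted level and 8033 of 13489 in the factor. At a mean of at least 5, 46 of 502 windows were called in IP level, against 6.59% of all windows tested. At a mean of at least 1 it was 60 of 1151 against 2.65%, and with TMM scaling 14 of 287 against 8.29%. Of these calls 41, 59 and 14 were rises, and such filters can admit windows through their nano-TiO2 level. At a mean of at least 1 the within-gene test called 0, against 0.0641% of all windows tested. Genes with separate groups in the densest stretch were 1 with 4 windows and 1 with 20 windows, against 12.7% and 15.7% of all genes measured. With adjusted values it was 1, and no share over all genes was computed. Each filter admits different windows, and causes of these differences were not tested.

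Values that changed sign were uncalled under both settings. Over the fits that left out 1 library, IP level ranged for Tbx2 from -0.43 to 0.73, Gata4 from -0.39 to 0.11 and Isl1 from -0.14 to 1.11. Adjusted level ranged for Tbx2 from -0.54 to 0.047, Nkx2-5 from -0.0045 to 0.097, Gata4 from -0.14 to 0.30 and Isl1 from -0.34 to 0.27, the factor for Tbx2 from -0.32 to 0.66, and the windows Gata4 505 from -0.41 to 0.094 and Hand2 1426 from -0.48 to 0.019. With the length trend removed, Tbx2 was -0.12 and Gata6 -0.044 in IP level, and Mef2c -0.039, Nkx2-5 -0.018, Gata4 -0.15 and Hand2 -0.079 in adjusted level. Equal totals turned Gata4 (0.38), Hand1 (0.14) and Hand2 (0.22), and leaving aside the 4 most abundant genes turned Gata4 (0.15). Quantile normalization turned Tbx2 (-0.27) and Gata4 (0.17) in IP level and Hand2 (-0.098) in adjusted level, DESeq2 size factors turned Tbx2 (-0.075), TMM turned Nkx2-5 (-0.10), Gata4 (-0.11) and Hand2 (-0.12) in adjusted level and the window Gata4 505 (0.027), and quality weights turned Isl1 (0.21) in adjusted level.

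Replicate numbers are shared between groups, and the deviations of same-numbered libraries from their group means correlated at -0.37, 0.18 and 0.02. Differently numbered libraries gave values from -0.56 to 0.52. With 3 libraries a group, this check cannot decide whether libraries were paired. With the replicate block, 4 genes were called in IP level, 0 in adjusted level and 2 in the factor, against 34.6%, 0% and 13.9% of all. The same fits called 30 windows in IP level and 1 within genes, against 12.7% and 0.0425% of all windows tested. Isl1 rests on 5 to 59 reads a library, and each group has 3 libraries.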
